A study of Mus musculus with 10 samples.

Results

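The adrenal levels of 8 genes at the output and speed-control side of the circadian clock were examined in mice lacking Crem and in wild-type mice. The 8 genes are the PAR bZIP activators Dbp, Tef and Hlf, the bZIP repressor Nfil3, the basic helix-loop-helix repressors Bhlhe40 and Bhlhe41, and the casein kinases Csnk1d and Csnk1e. They were chosen by name, by a rule that uses no measured value, out of 19661 genes with a measured probe set annotated to 1 gene symbol. All 8 were measured, each by 1 such probe set.

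Whole adrenal RNA from 10 mice was hybridised to Affymetrix arrays, 1 array per mouse, with 5 mice labelled Crem-/- (KO) and 5 labelled WT. Both groups came from 1 mixed background (129Pas x C57Bl/J), and all mice were 8 weeks old, untreated, and killed at lights-on (0 h circadian time) of a light:dark cycle. No tissue-specific driver is named for the KO. The labels name neither the sex of the mice nor the part of Crem that is disrupted. All mice were killed at 1 time point, so the values describe differences between mice at that hour and not the rhythm of a gene. The labels name 4 batches without saying what a batch was. Batch 1 held KO 1, KO 2 and WT 1, batch 2 held KO 3 and KO 4, batch 3 held KO 5, WT 2, WT 3 and WT 4, and batch 4 held WT 5. Numbers after KO and WT name mice and have no order.

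In the circadian clock, CLOCK and BMAL1 bind E-boxes and drive Per, Cry and Nr1d1, and the same E-boxes drive output genes such as Dbp. DBP, TEF and HLF activate genes through D-boxes, to which NFIL3 also binds as a repressor, while BHLHE40 and BHLHE41 (DEC1 and DEC2) repress through E-boxes. CK1δ and CK1ε, the products of Csnk1d and Csnk1e, phosphorylate PER proteins and thereby set how long they last. The adrenal cortex has a clock of its own that shapes the daily rhythm of glucocorticoid output. CREM binds cAMP response elements (CREs), which are also found in clock genes such as Per1.

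Promoter windows of 300 bases, from 250 bases before to 50 bases after an annotated start, were available for 6 of the 8 genes (10 windows, RefSeq, GRCm38.p6). They were searched on both strands for the E-box CACGTG, the D-box as TTACGTAA or TTATGTAA, the CRE TGACGTCA and the CRE core TGACG, the last of which is also part of every full CRE. The E-box was found in 3 windows of 2 members, Bhlhe41 and Tef, against 7.15% of all 32851 windows. The full CRE was found in 1 window, that of Hlf, against 1.79% of all windows. The CRE core was found in 4 windows of Hlf, Nfil3 and Csnk1e, against 20.8% of all windows. The Csnk1e windows overlap and hold the same site, at -72 or -158 depending on the start, so this site is counted more than once. None of the 10 windows held the D-box, which occurred in 1.06% of all windows, and the Dbp window held none of these letters. The stretches around a motif are printed because they hold the letters through which the clock and the cAMP pathway are known to act. They read 5′ to 3′ on the strand of the gene, with the motif in capitals.
Bhlhe41 (E-box, chr6:145865542-145865599, minus strand): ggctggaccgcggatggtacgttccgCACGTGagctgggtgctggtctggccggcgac
Tef (E-box, chr15:81802520-81802577, plus strand): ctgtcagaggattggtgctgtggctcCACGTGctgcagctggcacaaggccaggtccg
Tef (E-box of a further start, chr15:81811250-81811307, plus strand): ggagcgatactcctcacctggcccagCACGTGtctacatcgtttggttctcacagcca
Hlf (CRE, chr11:90390918-90390952, minus strand): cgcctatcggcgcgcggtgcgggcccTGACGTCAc
Nfil3 (CRE core on the opposite strand, chr13:52981068-52981124, minus strand): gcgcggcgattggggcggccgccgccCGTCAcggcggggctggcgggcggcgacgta
Csnk1e (CRE core on the opposite strand, chr15:79442185-79442241, minus strand): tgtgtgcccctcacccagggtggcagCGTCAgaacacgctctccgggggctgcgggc
Counted from the start, the first base of the motif lay at -153 in Bhlhe41, at -127 and -138 in Tef, at -9 in Hlf, at -59 in Nfil3 and at -72 in Csnk1e. A match of letters is a description of these windows, and binding was not measured.

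All levels are log2 values from RMA, and array medians lay between 7.17 and 7.25. The adrenal cortex markers had means of 12.16 to 12.73 over the 10 arrays, lowest on KO 3 (12.16) and KO 1 (12.27). In WT the means were 12.54 to 12.73. These markers were lower in KO for 8 of 9 genes, against 53.2% of all genes. Their median log2 difference was -0.11, or 0.05 without KO 1 and KO 3. Nr5a1 was the only 1 of the 9 with an unadjusted p under 0.05 (limma unadjusted p = 0.0198, adjusted p = 0.999), against 3.42% of all probe sets. Several arrays stood apart. The liver and pancreas markers, taken as 1 list, had their highest mean on KO 1 (11.22, with 6.69 to 8.58 elsewhere). Of this list, Apoa2 (13.25), Ttr (13.35) and Fabp1 (12.23) peaked on KO 1. The pancreas gene Cela2a did not, with 7.03 on KO 1 and its highest level on KO 4 (7.26), so the list mean does not speak for it. The chromaffin markers had their lowest mean on KO 1 (8.13, with 11.18 to 12.26 elsewhere). KO 1 and KO 3 had adipocyte marker means of 12.46 and 12.29, against 8.20 to 10.63 on the others. KO 2, KO 5 and WT 3 lay at 60.7 to 69.4 on the first principal component, which held 53.8% of the variance, with WT 4 at 17.4 and the other 6 arrays between -54.0 and -23.7. In KO, the liver and pancreas markers were higher for 8 of 9 genes (list mean 6.69 to 11.22 in KO, 6.90 to 7.91 in WT), and the adipocyte markers for 8 of 8 (8.20 to 12.46 in KO, 8.83 to 10.63 in WT). The chromaffin markers were lower for 7 of 7 genes (8.13 to 12.21 in KO, 11.45 to 12.26 in WT). These differences rest largely on KO 1 and KO 3. Without both, the median log2 difference went from 1.32 to -0.16 for the liver and pancreas markers and from 0.45 to -0.70 for the adipocyte markers, and without KO 1 that of the chromaffin markers went from -0.82 to -0.08. In whole-gland RNA, fewer cells of a type and less RNA per cell cannot be told apart. The Crem probe set did not separate the genotypes (KO 7.36 ± 0.51, WT 7.54 ± 0.37, SD, n = 5 each; exact permutation p = 0.516), so KO and WT refer to the labels.

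No member was DE between KO and WT. At an adjusted p under 0.05 (limma, Benjamini-Hochberg over 25664 probe sets), 0 of the 8 members passed, as did 0% of all probe sets. At an unadjusted p under 0.05, 0 of the 8 members passed by limma against 3.42% of all probe sets (2.5% lower in KO), and the KO and WT levels overlapped for all 8, against 0.717% of all genes without overlap. The KO mean was below the WT mean for 6 of the 8 members (75%), as it was for 53.2% of all genes. The smallest exact permutation p that 5 against 5 arrays allow is 0.00794. The adjusted p was 0.999 for each member (limma).

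**Figure D1:**
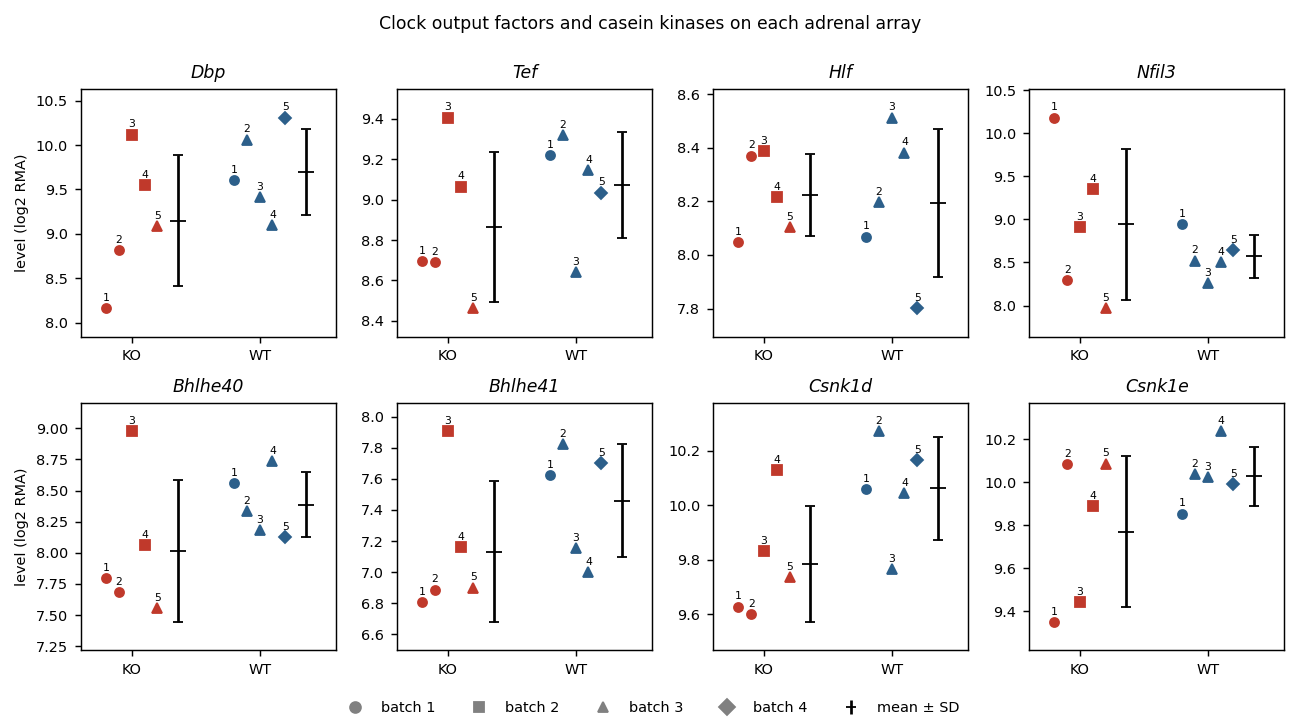
Level (log2 RMA value, y axis, each panel with its own scale) of each member on the 5 KO and 5 WT arrays, numbered by mouse, with marker shape for the batch and bars for mean ± SD. KO and WT overlap in every panel, and KO 3 is the highest of the 10 arrays for Tef, Bhlhe40 and Bhlhe41.

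Dbp, a PAR bZIP factor with a strong daily rhythm in many tissues, had log2 levels of 8.16, 8.82, 10.12, 9.55 and 9.09 on KO 1 to KO 5. On WT 1 to WT 5 it had 9.60, 10.06, 9.42, 9.10 and 10.31. KO 1, KO 2 and KO 5 lay below the lowest WT array, whereas KO 3 lay above all WT arrays but WT 5. The KO mean was 9.15 ± 0.74 and the WT mean 9.70 ± 0.49 (SD, n = 5 each), a log2 difference of -0.55 with a 95% confidence interval of -1.33 to 0.23 (exact permutation p = 0.183). Leaving out single arrays gave -0.79 (without KO 3) to -0.31 (without KO 1).

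Tef, which binds the same D-boxes as Dbp, measured 8.70, 8.69, 9.41, 9.06 and 8.46 in KO and 9.22, 9.32, 8.64, 9.15 and 9.03 in WT (log2). KO 3 was the highest and KO 5 the lowest of all arrays, and the groups overlapped. The difference was -0.21 (95% confidence interval -0.63 to 0.22; exact permutation p = 0.349), and -0.34 without KO 3 to -0.11 without KO 5 when single arrays were left out.

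Hlf, the third PAR bZIP activator, measured 8.05, 8.37, 8.39, 8.22 and 8.10 in KO and 8.07, 8.20, 8.51, 8.38 and 7.80 in WT (log2). All KO arrays lay within the WT range. The difference was 0.03, with a 95% confidence interval of -0.28 to 0.35 (exact permutation p = 0.825). The sign of this value turned with batch as a fixed block, within batch 3, or when KO 2, KO 3 or WT 5 was left out.

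Nfil3, the repressor that opposes these activators, measured 10.18, 8.30, 8.91, 9.35 and 7.97 in KO and 8.94, 8.52, 8.26, 8.50 and 8.64 in WT (log2). The KO arrays held both the highest and the lowest level of the 10, and the KO SD was 0.88 against 0.25 in WT. The difference was 0.37 (95% confidence interval -0.43 to 1.17; exact permutation p = 0.421). The highest level was on KO 1. This array had the highest adipocyte marker mean, the highest mean of the liver and pancreas list and the lowest chromaffin marker mean. Within the liver and pancreas list, the pancreas gene Cela2a did not peak on KO 1 (7.03). On KO 4, KO 3 and WT 3, Nfil3 levels of 9.35, 8.91 and 8.26 stood beside liver and pancreas marker means of 7.59, 8.58 and 7.91. The difference was 0.06 without KO 1. It was 0.61 without KO 5, and 0.83 without KO 2, KO 5 and WT 3. The part of those markers in the Nfil3 level was not tested.

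Bhlhe40 measured 7.79, 7.68, 8.97, 8.06 and 7.56 in KO and 8.56, 8.33, 8.18, 8.74 and 8.13 in WT (log2). Of the 5 KO arrays, 4 lay below every WT array and KO 3 lay above every WT array. The means were 8.01 ± 0.57 in KO and 8.39 ± 0.26 in WT, with a difference of -0.37 (95% confidence interval -0.94 to 0.19; exact permutation p = 0.214, n = 5 each). Leaving out KO 3 gave -0.61 and leaving out KO 5 gave -0.26.

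Bhlhe41, its paralog, measured 6.81, 6.89, 7.90, 7.16 and 6.90 in KO and 7.62, 7.82, 7.16, 7.00 and 7.70 in WT (log2). KO 1, KO 2 and KO 5 lay below every WT array and KO 3 above every WT array. The difference was -0.33 (95% confidence interval -0.85 to 0.20; exact permutation p = 0.254). It was -0.52 without KO 3 and -0.25 without KO 1.

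Csnk1d, one of the kinases that phosphorylate PER, measured 9.63, 9.60, 9.83, 10.13 and 9.74 in KO and 10.06, 10.27, 9.77, 10.04 and 10.17 in WT (log2). KO 1, KO 2 and KO 5 lay below every WT array, and KO 3 and KO 4 lay among the WT arrays. The difference was -0.28, with a 95% confidence interval of -0.57 to 0.01 (exact permutation p = 0.0794). Csnk1e, the closely related kinase, measured 9.35, 10.08, 9.44, 9.89 and 10.09 in KO and 9.85, 10.04, 10.02, 10.24 and 9.99 in WT (log2). The lowest levels were on KO 1 and KO 3, the arrays with the highest adipocyte and the lowest cortex marker means. The other KO arrays lay within the WT range. The difference was -0.26 (95% confidence interval -0.62 to 0.10; exact permutation p = 0.214). It was -0.01 without KO 1 and KO 3, and -0.47 without KO 2, KO 5 and WT 3. The part of the adipocyte and cortex markers in the Csnk1e level was not tested.

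Batches were spread unequally over the genotypes, so the difference was also taken with batch as a fixed block and within the batches that held both genotypes. With the block, all 8 members were lower in KO, as were 59.9% of all genes, and 0 of 8 passed an adjusted p under 0.05 (limma; 0% of all probe sets). At an unadjusted p under 0.05, 2 of the 8 passed, against 7.18% of all probe sets. These were Bhlhe40, with a log2 difference of -0.84 ± 0.26 (SE; limma unadjusted p = 0.0123, adjusted p = 0.582), and Tef, with -0.55 ± 0.20 (SE; limma unadjusted p = 0.0255, adjusted p = 0.582). Batches 2 and 4 held 1 genotype each, so KO 3, KO 4 and WT 5 did not enter the estimated differences. KO 3 and KO 4 had the highest KO levels of Bhlhe40 (8.97 and 8.06) and Tef (9.41 and 9.06). The same held for Dbp, Bhlhe41 and Csnk1d, so the block values leave out the highest KO arrays of these members. With batch as a random block neither Bhlhe40 (-0.46) nor Tef (-0.28) was called at an unadjusted p under 0.05. In that fit 1 of the 8 was called, Csnk1d (-0.30, limma unadjusted p = 0.0456, adjusted p = 0.978), against 3.45% of all probe sets.

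Which members had an unadjusted p under 0.05 depended on the arrays and the model. Without KO 1 and KO 3, 2 of 8 passed, against 2.7% of all probe sets, namely Bhlhe40 (-0.62; limma unadjusted p = 0.00759, adjusted p = 0.947) and Bhlhe41 (-0.48; limma unadjusted p = 0.0465, adjusted p = 0.947). Without KO 2, KO 5 and WT 3, 2 others of 8 passed, against 12.2% of all probe sets, namely Nfil3 (0.83; limma unadjusted p = 0.0167, adjusted p = 0.365) and Csnk1e (-0.47; limma unadjusted p = 0.0181, adjusted p = 0.365). With the first principal component as a covariate 2 of 8 passed, Csnk1d (-0.27) and Csnk1e (-0.27), against 10.5% of all probe sets. No member passed an adjusted p under 0.05 in any of these fits (limma).

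The differences within batch 1 (2 KO, 1 WT) and batch 3 (1 KO, 3 WT) had the same sign for 6 members. No share over all genes was taken beside this count. For Bhlhe40 they were -0.82 and -0.86, and for Tef -0.53 and -0.57. For Dbp they were -1.11 and -0.44, for Bhlhe41 -0.78 and -0.43, for Csnk1d -0.45 and -0.29, and for Csnk1e -0.14 and -0.01. For Hlf (0.14 and -0.26) and Nfil3 (0.29 and -0.46) the batches differed in sign. Each batch held a single mouse of 1 genotype, WT 1 in batch 1 and KO 5 in batch 3. These values also rest in part on arrays that stood apart. These were KO 2, KO 5 and WT 3 on the first principal component, and KO 1 on the liver and pancreas, adipocyte and chromaffin markers.

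**Figure D2:**
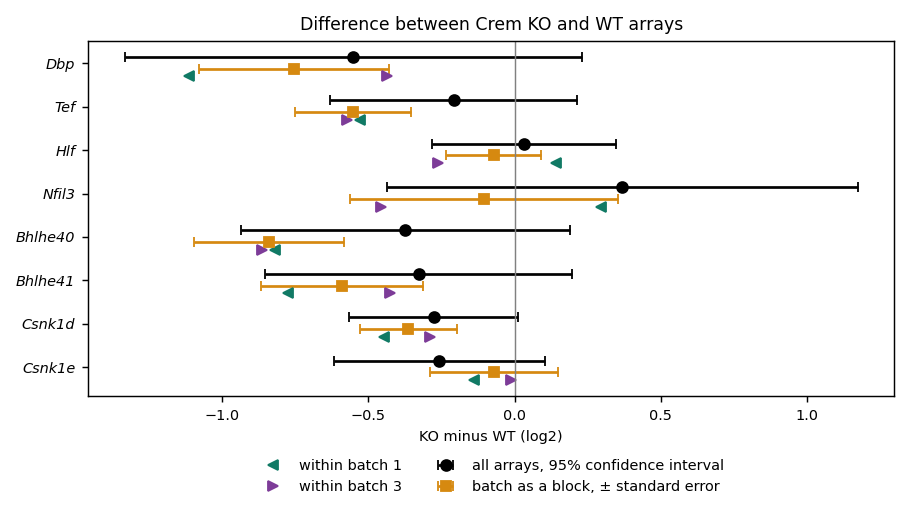
KO minus WT difference (log2, x axis) of each member over all 10 arrays with its 95% confidence interval (black), with batch as a block ± SE (orange) and within batches 1 and 3 (triangles). Every black interval includes 0, and for Bhlhe40 the block value of -0.84 lies farther from 0 than the value of -0.37 over all arrays.

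Differences between the batches themselves were tested with genotype in the model. None of the members passed an adjusted p under 0.05 (limma F test; 0% of all probe sets). Dbp was the one member at an unadjusted p under 0.05 (limma F test, unadjusted p = 0.0391, adjusted p = 0.498), as were 8.2% of all probe sets. Its batch means were 8.86 in batch 1, 9.83 in batch 2, 9.42 in batch 3 and 10.31 on the single array of batch 4.

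Mice differed more in some members than in others. The log2 range over the 10 arrays, both genotypes together, was 2.21 for Nfil3 (a 4.63-fold range) and 2.14 for Dbp (4.42-fold). It was 1.42 for Bhlhe40, 1.10 for Bhlhe41, 0.94 for Tef, 0.89 for Csnk1e, 0.71 for Hlf and 0.67 for Csnk1d (1.59-fold). The SD left after the genotype means were removed was 0.64 for Nfil3 and 0.63 for Dbp, at percentiles 90.6 and 90.1 of all probe sets. That of Bhlhe40 was 0.44 (percentile 80.5) and that of Bhlhe41 was 0.41 (percentile 77.5). That of Csnk1d was 0.20 (percentile 36.4) and that of Hlf was 0.22 (percentile 43.4). This SD still holds differences between batches. With batch as a fixed block it was 0.65 for Nfil3, 0.45 for Dbp, 0.34 for Bhlhe40 and 0.38 for Bhlhe41. For Nfil3 the spread lay in KO (SD 0.88, against 0.25 in WT) and was led by KO 1. For Dbp the SD was 0.74 in KO and 0.49 in WT.

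Several members varied together from mouse to mouse. Over the 28 pairs of members, 2 passed an adjusted p under 0.05 and 8 an unadjusted p under 0.05 by Pearson r (permutation test, two-sided, 10 arrays), and 4 and 7 did by Spearman rho. No share over all gene pairs was taken, so these counts do not set the members apart from other genes. Dbp and Bhlhe41 had a Pearson r of 0.900 (permutation p = 0.000160, adjusted p = 0.00448) and a Spearman rho of 0.964 (permutation p = 5.00e-05, adjusted p = 0.00140). Without the 2 arrays farthest from the median of Dbp, r was 0.947. With batch means removed it was 0.931, and without KO 2, KO 5 and WT 3 it was 0.902 (adjusted p = 0.0556 by exact permutation). Ranked by r with Dbp over the 10 arrays, Bhlhe41 was number 16 of 19660 genes. It was number 128 without KO 2, KO 5 and WT 3, and number 127 without KO 1 and KO 3.

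Tef and Bhlhe40 had a Pearson r of 0.852 (permutation p = 0.00222, adjusted p = 0.0311) and a rho of 0.818 (permutation p = 0.00571, adjusted p = 0.0487). Their r was 0.881 without the 2 arrays farthest from the median of Tef, 0.847 with batch means removed and 0.829 without KO 2, KO 5 and WT 3. Without KO 1 and KO 3 it was 0.787. The adjusted p was above 0.05 in each of these smaller sets (0.0681, 0.169 and 0.142 by exact permutation) and when KO 1, KO 2, KO 3, KO 5, WT 1 or WT 5 alone was left out (0.0512 to 0.132). Tef and Bhlhe41 had an r of 0.804 (permutation p = 0.00809, adjusted p = 0.0755).

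Nfil3 ran opposite to Csnk1e, with a Pearson r of -0.785 (permutation p = 0.0110, adjusted p = 0.0770). Their rho was -0.830 (adjusted p = 0.0487). The r was -0.560 without KO 1, and it passed an adjusted p under 0.05 without KO 3 (r = -0.895, adjusted p = 0.0333) and without KO 4 (r = -0.827, adjusted p = 0.0298; both by exact permutation). Dbp and Csnk1d had an r of 0.717 (adjusted p = 0.112) and a rho of 0.806 (adjusted p = 0.0487). Hlf had no pair at an unadjusted p under 0.05 among the members, and its r with the other members lay between -0.33 and 0.29. Nfil3 and Dbp, the opposing D-box factors, had an r of -0.320 over all arrays (permutation p = 0.367), which turned to 0.452 without KO 1 and was -0.750 without KO 2, KO 5 and WT 3. No batch held more than 4 arrays, so r was not computed within a batch, and the p-values with batch means removed do not count the degrees of freedom that the batch means use.

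**Figure D3:**
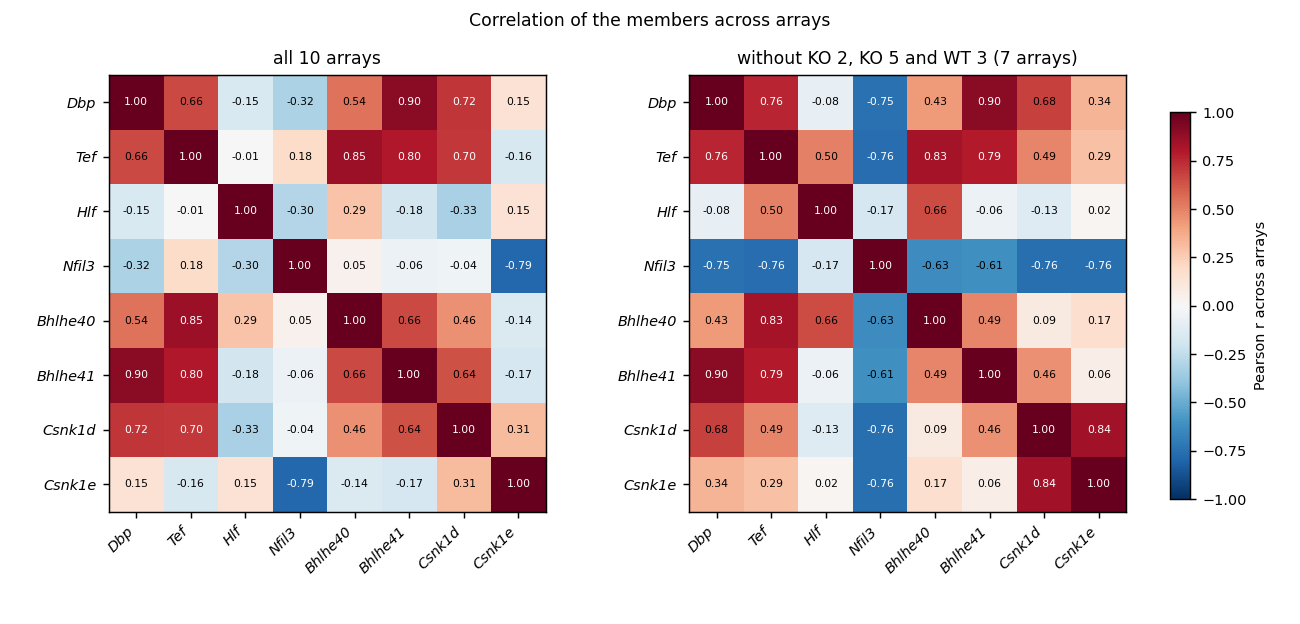
Pearson r between each pair of members over all 10 arrays (left) and without KO 2, KO 5 and WT 3 (right), coloured from -1 (blue) to 1 (red). Dbp and Bhlhe41 stand at 0.90 in both panels, and Tef and Bhlhe40 at 0.85 and 0.83.

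The members were also set against 6 genes of the core loop, namely Arntl (which encodes BMAL1), Per1, Per2, Per3, Nr1d1 and Nr1d2. Of these 48 pairs, again without a share over all gene pairs, 1 passed an adjusted p under 0.05 and 8 an unadjusted p under 0.05 (permutation test). The pair was Dbp with Nr1d1, which encodes the repressor REV-ERBα and is driven through E-boxes like Dbp. Nr1d1 had log2 levels of 9.24, 9.75, 10.83, 10.73 and 10.03 in KO and 10.22, 10.85, 10.09, 9.92 and 11.17 in WT. Both genes were lowest on KO 1 and highest on WT 5, and KO and WT arrays were interspersed between them.

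The Pearson r of Dbp and Nr1d1 was 0.964 (permutation p = 2.00e-05, adjusted p = 0.000960), and the rho was 0.964 (permutation p = 4.00e-05, adjusted p = 0.00192). It was 0.918 without the 2 arrays farthest from the median of Dbp (adjusted p = 0.0833 by exact permutation), 0.947 with batch means removed and 0.973 with genotype means removed. Without KO 2, KO 5 and WT 3 it was 0.964, and without KO 1 and KO 3 it was 0.938. Ranked by r with Dbp over the 10 arrays, Nr1d1 was number 1 of 19660 genes. It was number 17 without KO 1, number 8 without KO 2, KO 5 and WT 3, and number 49 without KO 1 and KO 3. These ranks are given as a description, with no test.

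**Figure D4:**
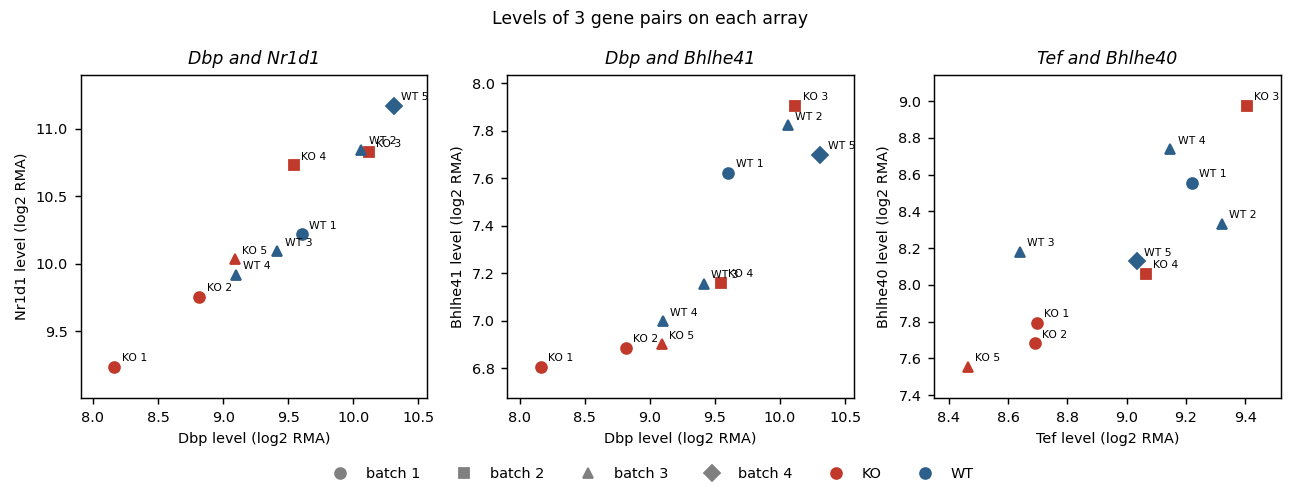
Levels (log2 RMA values) of Dbp against Nr1d1, Dbp against Bhlhe41 and Tef against Bhlhe40 on the 10 arrays, each point 1 mouse, red for KO and blue for WT, with marker shape for the batch. Dbp and Nr1d1 rise together from KO 1 to WT 5 (r = 0.964), with KO and WT arrays interspersed.

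No other pair with the core loop passed an adjusted p under 0.05 by Pearson r, whereas 4 others did by Spearman rho. Bhlhe41 and Nr1d1 had an r of 0.821 (permutation p = 0.00499, adjusted p = 0.0599) and a rho of 0.927 (adjusted p = 0.00768). Hlf and Per3, a member of the Per family, had an r of 0.794 (permutation p = 0.00489, adjusted p = 0.0599) and a rho of 0.891 (adjusted p = 0.0152). This r was 0.673 with batch means removed (permutation test, adjusted p = 0.132) and 0.822 with genotype means removed (adjusted p = 0.0377). Nfil3 and Nr1d2, the paralog of Nr1d1, had an r of -0.784 (permutation p = 0.00290, adjusted p = 0.0599) and a rho of -0.903 (adjusted p = 0.0114). Both genes split by the arrays that were highest on the first principal component. On KO 2, KO 5, WT 3 and WT 4, Nr1d2 was 8.58 to 8.98 and Nfil3 7.97 to 8.50. On the other arrays Nr1d2 was 7.51 to 7.96 and Nfil3 8.52 to 10.18. Csnk1d and Nr1d1 had an r of 0.745 (permutation p = 0.0167, adjusted p = 0.134) and a rho of 0.842 (adjusted p = 0.0374). Csnk1e and Arntl had an r of 0.855 (permutation p = 0.0100, adjusted p = 0.0961), which fell to 0.145 without KO 1 and KO 3. The value over all 10 arrays thus rests on those arrays. With batch means removed r was 0.930 (permutation test, adjusted p = 0.00480), and with genotype means removed it was 0.834 (adjusted p = 0.0377). Both of these sets keep KO 1 and KO 3, and their p-values ignore lost degrees of freedom.

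Other genes of the same pathway were compared as lists. At an adjusted p under 0.05, 0 genes of any list passed (limma). Of all genes 53.2% were lower in KO, or 59.9% with batch as a block. An unadjusted p under 0.05 was reached by 3.42% of all probe sets (limma). Of 11 measured genes of the core loop, 7 were lower in KO, with a median log2 difference of -0.08, against -0.27 for the 8 members and -0.01 for all genes. Per2 was the only one of the 11 at an unadjusted p under 0.05, with levels of 8.02, 7.84, 7.62, 7.63 and 7.70 in KO and 8.38, 7.97, 8.56, 8.76 and 7.86 in WT. KO 1 overlapped WT 2 and WT 5, and the other KO arrays lay below every WT array. The Per2 difference was -0.55 ± 0.18 (SE; limma unadjusted p = 0.0114, adjusted p = 0.999).

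Of 9 measured genes that act in the turnover of PER and CRY, 7 were lower in KO (median -0.18), and 2 had an unadjusted p under 0.05, against 3.42% of all probe sets. With batch as a block 5 of the 9 were lower, against 59.9% of all genes, and the median was -0.09 without KO 1 and 0.03 without KO 1 and KO 3. The 2 genes at an unadjusted p under 0.05 were the paralogs Fbxw11 and Btrc. They encode the β-TrCP F-box proteins that recognise PER once CK1 has phosphorylated it. Fbxw11 lay between 9.62 and 10.24 in KO and between 10.15 and 10.60 in WT. KO 4 lay above WT 3, and the other KO arrays lay below every WT array. The Fbxw11 difference was -0.51 ± 0.14 (SE; limma unadjusted p = 0.00405, adjusted p = 0.999), and that of Btrc was -0.30 ± 0.13 (SE; limma unadjusted p = 0.0495, adjusted p = 0.999).

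Of the 5 other casein kinase genes measured, 4 were lower in KO (median -0.10), with none at an unadjusted p under 0.05. With batch as a block their median was 0.53 and 2 were lower, against a median of -0.46 for the 8 members. Csnk1a1, the gene of the α kinase, moved from -0.14 over all arrays to 0.59 with the block, and Csnk1g1 from 0.19 to 0.60. Csnk1g2 moved from -0.16 to -0.48, the same way as Csnk1d, which moved from -0.28 to -0.36. Csnk1a1 was highest on KO 2, KO 5, WT 3 and WT 4 (11.64 to 11.89, against 10.19 to 10.87 elsewhere).

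Further lists stood beside the members. Their counts are to be read beside 53.2% of all genes lower in KO, or 59.9% with batch as a block. The share of all probe sets with an unadjusted p under 0.05 was 3.42% (limma). Of 6 measured genes known as PAR bZIP targets in liver and kidney, 2 were lower in KO, and their median difference was 0.23, but -0.12 without KO 1. Of 8 other bZIP repressors and C/EBP factors, 3 were lower (median 0.16, but -0.21 with batch as a block). Of 6 measured heat shock genes, 5 were lower (median -0.56), and Hspa1a, Dnajb1 and Bag3 had an unadjusted p under 0.05, but with batch as a block 3 of the 6 were lower (median -0.39). Of 12 immediate early genes, 11 were lower (median -0.23, or -0.63 with batch as a block), and Jun had an unadjusted p under 0.05. The endothelial and macrophage markers were lower in KO for 7 of 7 and 6 of 6 genes, with median differences of -0.34 and -0.18. With batch as a block, 6 of the 7 and 5 of the 6 were lower (medians -0.25 and -0.39). The part of these genes in the member values was not tested.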

How the data were processed

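The authors deposited log2 values for each probe set. Their processing notes name RMA (background correction, quantile normalisation, summary of probes), without a version, filters or any handling of batches. Of 35557 rows, 25689 held values. After 25 control probes were removed, 25664 were tested. A gene was represented by its single-symbol probe set with the highest mean (20777 probe sets, 19661 genes).

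Genotypes were compared in limma 3.58.1 (R 4.3.3; lmFit and eBayes, two-sided, Benjamini-Hochberg over all probe sets), with exact permutation tests over the 252 choices of 5 arrays for single genes. Batch was fitted as a fixed block, as a random block (consensus correlation 0.172), and within batches. Correlations over 10 arrays were tested with 100000 permutations (exact below 10 arrays; scipy 1.17.1) and adjusted within each family of pairs. Alternatives were a median shift, repeated quantile normalisation, brighter probes alone, trend and robust eBayes, arrayWeights, the first principal component as covariate, and leaving out arrays.

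Each array carries its own animal number in the labels and was counted as 1 mouse. The number of arrays limits the precision. RMA gives no detection call. The rule for the members uses no measured value. Even so, members, gene lists and tests were chosen with earlier results of these data known. The genes named are the members, Crem, up to 4 genes per list with the smallest p, the core loop genes paired with the members, and the 3 genes most like each member; Glb1l3 was named after its value was seen. Scripts were tested on simulated data. Proteins were not analysed here.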

Additional observations from a re-analysis of the deposited data

Results flagged for a closer look

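The mean of the chromaffin cell markers on KO 1 was 8.13 on the log2 scale, far from the nearest of the other KO arrays (11.18). The gap was 0.747 of the range of the KO group, above the critical value of 0.71 for 5 samples. Of 48 groups of values examined in this way 1 stood out, and chance gives about 1 in 20. The same array held the lowest Dbp, Bhlhe41 and Csnk1e and the highest Nfil3 of the 10. Without KO 1, the KO minus WT difference was -0.31 for Dbp, -0.25 for Bhlhe41, -0.15 for Csnk1e and 0.06 for Nfil3. The part of the markers in these values was not tested.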

How the results depend on the processing

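No member passed an adjusted p under 0.05 under any alternative run. Over all probe sets the count was 0, except with the first principal component as a covariate, where 1 probe set passed (Glb1l3, -0.88, limma adjusted p = 0.0234). That component was computed from the same values. The signs of Dbp, Tef, Bhlhe40, Bhlhe41, Csnk1d and Csnk1e held under all alternatives run. That of Csnk1e says little, as its value lay within its SE of 0 with batch as a block (-0.07 ± 0.22) and without KO 1 and KO 3 (-0.009 ± 0.12). Within batch 3 it was -0.01. Hlf turned to -0.072 with batch as a block and to -0.26 within batch 3, and ranged from -0.065 to 0.11 when single arrays were left out, turning sign without KO 2 (-0.0039), KO 3 (-0.0079) or WT 5 (-0.065). Nfil3 (0.37) was 0.83 without KO 2, KO 5 and WT 3, and turned to -0.10 with the block, to -0.46 within batch 3 and to -0.033 without KO 1 and KO 3. The cause was not tested. Each member had 1 probe set, so a mean over probe sets gives the same values. Median differences of the gene lists moved by over 1 SD in 16 of 240 cases, most with batch as a block or within a batch.

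The member pairs past an adjusted p under 0.05 numbered 2 in the main test, 1 without the 2 farthest arrays, 1 without KO 1 and KO 3, 0 without KO 2, KO 5 and WT 3 (6 at an unadjusted p under 0.05), and 1 to 4 when single arrays were left out. These smaller sets hold fewer samples. The r of Dbp with Nfil3 turned from -0.320 to 0.516 without the 2 farthest arrays and to 0.387 without KO 1 and KO 3, and ranged from -0.448 to 0.452 when single arrays were left out, being above 0 only without KO 1. The pairs with core loop genes numbered 1 in the main test, 0 without the 2 farthest arrays (4 unadjusted), 5 with batch means removed, 6 with genotype means removed, 3 without KO 1 and KO 3, 2 after a median shift, and 1 to 4 when single arrays were left out. Leaving single arrays out of the correlations, and the scalings of the lists, were chosen after seeing the data. The tests with means removed ignore lost degrees of freedom. No paired analysis was possible because the labels give the genotypes no shared replicate numbers.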

Other observations

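The genes most like each member over the 10 arrays were listed by Pearson r among 19660 genes, as a description with no test. After Nr1d1, Dbp was most like Lhfpl5 (r = 0.952) and Iffo1 (0.938). Tef was most like Camk2n2 (0.967), Habp4 (0.964) and Gpr61 (0.961). Hlf was most like Ttll3 (0.886), Zcwpw2 (0.880) and Tmem74 (0.876), the lowest of the leading values. Nfil3 was most like Agxt (0.962), an enzyme of glyoxylate metabolism in liver, Krt7 (0.962), an epithelial keratin, and Dhrs9 (0.951). Agxt had log2 levels of 7.50, 5.58, 6.30, 6.34 and 5.38 in KO and 6.08, 5.83, 5.71, 6.14 and 5.96 in WT, highest like Nfil3 on KO 1.

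Bhlhe40 was most like Atp6v1g3 (0.943), Ube2j2 (0.920) and Tspan18 (0.920), and Bhlhe41 like Nutm2 (0.971), Slco1a5 (0.957) and Fancc (0.936). Csnk1d was most like Sec24c (0.985), Gcc1 (0.983) and Ece1 (0.982). Csnk1e was most like Itga9 (0.979), Star (0.973), which encodes the protein that brings cholesterol into mitochondria for steroid synthesis, and Pigb (0.971). Without KO 1 and KO 3, the r of Csnk1e with Star was 0.844 and with Pigb 0.769. Star had log2 levels of 13.31, 13.93, 13.36, 13.72 and 13.97 in KO and of 13.76 to 14.12 in WT, lowest like Csnk1e on KO 1 and KO 3.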
